A study of Mus musculus with 24 samples.

Results

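The orphan nuclear receptor genes Nr4a1, Nr4a2 and Nr4a3 were followed in mRNA sequencing of whole mouse cerebellum at 7 and 79 weeks of age. The 3 symbols were matched to Ensembl identifiers (ENSMUSG00000023034, ENSMUSG00000026826 and ENSMUSG00000028341), and all 3 were among the 15292 genes tested of 37991 counted. The mice were male C57BL/6J, an inbred laboratory strain, with no genetic change or treatment given in the labels, and each age had 2 libraries. The series has 24 samples, of which 20 genomic ones were left aside. Whether same-age libraries derive from different animals is not given in the labels, so a p-value here reflects only how far these particular libraries scatter, possibly for technical reasons. The 3 genes were chosen by their measured change between the ages and their spread between libraries, so these values are given as a description, without a test.

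The proteins NR4A1 (Nur77), NR4A2 (Nurr1) and NR4A3 (Nor1) are transcription factors of the nuclear receptor superfamily that act without a known hormone ligand. They bind DNA alone at the NBRE element, as pairs of NR4A proteins, or, in the case of NR4A1 and NR4A2, together with retinoid X receptors. Their genes are immediate early genes: neurons switch them on within minutes of synaptic activity, largely through calcium and cyclic AMP signals that reach CREB, SRF and MEF2 factors. NR4A2 is also known as a factor that midbrain dopamine neurons need for development and upkeep.

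The promoters are shown because CREB sites near the start are the best known input to these genes. Each line below is a RefSeq window (build GRCm38.p6) from 250 bases before to 50 bases after the annotated start, 5′ to 3′ on the gene's strand, and capitals mark the core letters of the cyclic AMP response element (CRE), TGACG or its reverse complement. The windows are chr15:101266596-101266895 on the plus strand for Nr4a1, chr2:57123954-57124253 on the minus strand for Nr4a2, and chr4:48045055-48045354 on the plus strand for Nr4a3. The reads themselves were counted on build mm9, and no coordinates were converted.
Nr4a1: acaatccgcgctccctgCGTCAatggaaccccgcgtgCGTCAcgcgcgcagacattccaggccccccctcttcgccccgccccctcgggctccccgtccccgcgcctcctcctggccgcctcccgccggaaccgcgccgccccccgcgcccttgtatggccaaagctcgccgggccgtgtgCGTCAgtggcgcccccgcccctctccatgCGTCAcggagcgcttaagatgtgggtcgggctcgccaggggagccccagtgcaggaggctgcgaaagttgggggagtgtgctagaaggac
Nr4a2: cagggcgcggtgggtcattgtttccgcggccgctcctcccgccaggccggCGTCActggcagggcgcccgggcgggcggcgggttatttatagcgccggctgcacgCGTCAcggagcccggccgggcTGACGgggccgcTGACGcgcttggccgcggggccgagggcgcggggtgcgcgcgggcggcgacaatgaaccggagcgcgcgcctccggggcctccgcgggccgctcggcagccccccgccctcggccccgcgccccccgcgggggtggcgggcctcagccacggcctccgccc
Nr4a3: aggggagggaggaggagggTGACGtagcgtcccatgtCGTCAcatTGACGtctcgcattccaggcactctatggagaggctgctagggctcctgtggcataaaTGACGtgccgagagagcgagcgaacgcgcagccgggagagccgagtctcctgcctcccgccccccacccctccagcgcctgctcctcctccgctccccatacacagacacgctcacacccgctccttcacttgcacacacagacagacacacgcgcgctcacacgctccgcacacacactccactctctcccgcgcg

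All 3 windows held 4 copies of the CRE core, counted on both strands. Of all 32851 RefSeq windows of this length, 20.8% held at least 1 copy and 0.231% at least 4. In Nr4a1 each copy lay within the letters TGCGTCA, beginning 235, 215, 71 and 42 bases before the start, and 2.12% of all windows held that string at least 1 time. The copies in Nr4a2 began 200, 144, 123 and 111 bases before the start, and those in Nr4a3 began 231, 213, 205 and 147 bases before it. None of the 3 windows held the whole palindrome TGACGTCA (in 1.79% of windows), the CArG box bound by SRF (1.63%) or the NBRE letters AAAGGTCA that NR4A proteins bind (1.51%). Each palindrome counts as 2 overlapping cores, 1 on each strand. The shares of windows with at least 4 cores therefore include such overlapping pairs, which the 3 Nr4a windows do not hold. The TATA letters TATAAA, read on both strands, stood only in Nr4a2, 164 bases before the start on the opposite strand, against 13.6% of windows. The windows were rich in G and C (72.3%, 81.7% and 64.7%, against a median of 52.7%), and among the 6011 windows with at least 64.7% G and C, 0.532% held 4 or more cores. The motifs were chosen after the windows had been seen, and a match is a run of letters and no measurement of binding.

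All 3 receptors were higher in both 79-week libraries than in either 7-week library. Nr4a1, the member best known as an early response gene across tissues, stood at 24.2 and 32.2 CPM (read count relative to the TMM-scaled library total) in 7-week replicates 1 and 2, and at 125 and 54.5 CPM in 79-week replicates 1 and 2. Its 79-week libraries lay far apart, and the lower of them was 1.69 times the higher 7-week library. The fitted log2 fold change, 79 minus 7 weeks, was 1.65 (SE 0.35), or 3.15-fold.

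Nr4a2, the receptor of the dopamine neuron programme, stood at 18.8 and 24.0 CPM at 7 weeks and at 95.3 and 68.4 CPM at 79 weeks, replicate 1 first. The lower 79-week library was 2.85 times the higher 7-week library, the widest separation among the 3 genes. Its fitted log2 fold change was 1.92 (SE 0.18), or 3.79-fold. Nr4a3, which with Nr4a1 restrains myeloid growth and is also activity-induced in neurons, stood at 16.1 and 25.3 CPM at 7 weeks and at 43.8 and 50.6 CPM at 79 weeks. The gap from the higher 7-week to the lower 79-week library was 1.73-fold, and the fitted log2 fold change was 1.18 (SE 0.18), or 2.26-fold. In tissue RNA, a change in the number of cells that hold a transcript and a change in transcript per cell cannot be told apart.

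**Figure D1:**
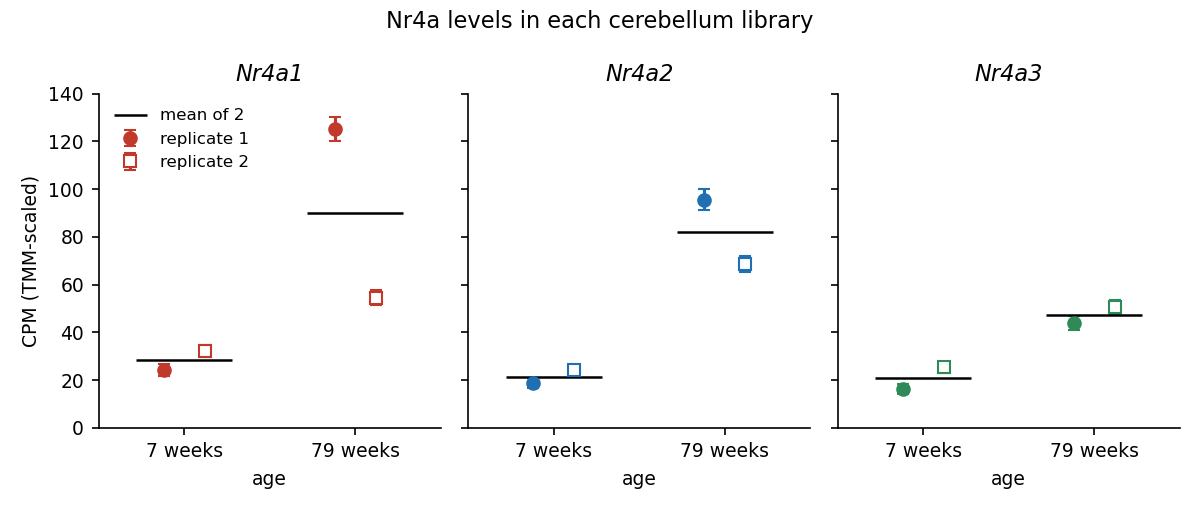
Levels of Nr4a1, Nr4a2 and Nr4a3 (CPM, TMM-scaled, linear axis from 0) in the 4 libraries; filled circles are replicate 1, open squares replicate 2, bars the exact Poisson 95% interval of the read count, and black lines the mean of 2 libraries. Nr4a1 spans 54.5 to 125 CPM at 79 weeks, whereas Nr4a3 spans 43.8 to 50.6 CPM.

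Across all tested genes, edgeR's quasi-likelihood F test called 3 of 3 receptors at an adjusted p of 0.05, beside 8.84% of all genes (4.17% called higher and 4.68% called lower at 79 weeks). The ages did not overlap for 3 of 3, beside 57.7% of all genes (29.1% with both 79-week libraries above both 7-week libraries and 28.7% below). Since this contrast chose the genes, nothing is read from these counts. The calls also depend on the fit: Nr4a1 was not called by DESeq2, limma-voom or with robust dispersion estimates, nor without 7-week replicate 2, and Nr4a3 was not called with robust dispersion estimates. Without 7-week replicate 1, edgeR called 0 of all tested genes, so that fit says nothing of the receptors. With each library left out in turn, the log2 fold change ranged from 0.94 to 2.13 for Nr4a1, from 1.67 to 2.14 for Nr4a2 and from 0.90 to 1.55 for Nr4a3.

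The receptors differed most in the spread between libraries of an age. At 79 weeks the higher library of Nr4a1 was 2.29 times the lower (95% interval from counting error alone 2.14 to 2.46, exact binomial), and 1.01% of the tested genes had a larger gap on the log2 scale. For Nr4a2 the ratio was 1.39 (1.30 to 1.49), exceeded by 8.66% of genes. For Nr4a3 it was 1.15 (1.06 to 1.26), exceeded by 27.5% of genes. The order was thus Nr4a1, Nr4a2, Nr4a3 from widest to narrowest, and each interval lay above 1.

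At 7 weeks the order was different. Nr4a3 had the widest ratio, 1.57 (1.35 to 1.83), exceeded by 3.39% of genes, followed by Nr4a1 at 1.33 (1.17 to 1.51) and Nr4a2 at 1.28 (1.10 to 1.48). Replicate 2 was the higher 7-week library for all 3 receptors, as for 51.3% of all tested genes. At 79 weeks replicate 1 was the higher library for Nr4a1 and Nr4a2, and replicate 2 for Nr4a3. As SDs over 2 libraries, the 79-week levels were 89.8 ± 49.8 CPM for Nr4a1, 81.9 ± 19.0 CPM for Nr4a2 and 47.2 ± 4.77 CPM for Nr4a3 (n = 2 each), against 28.2 ± 5.66, 21.4 ± 3.69 and 20.7 ± 6.47 CPM at 7 weeks.

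**Figure D2:**
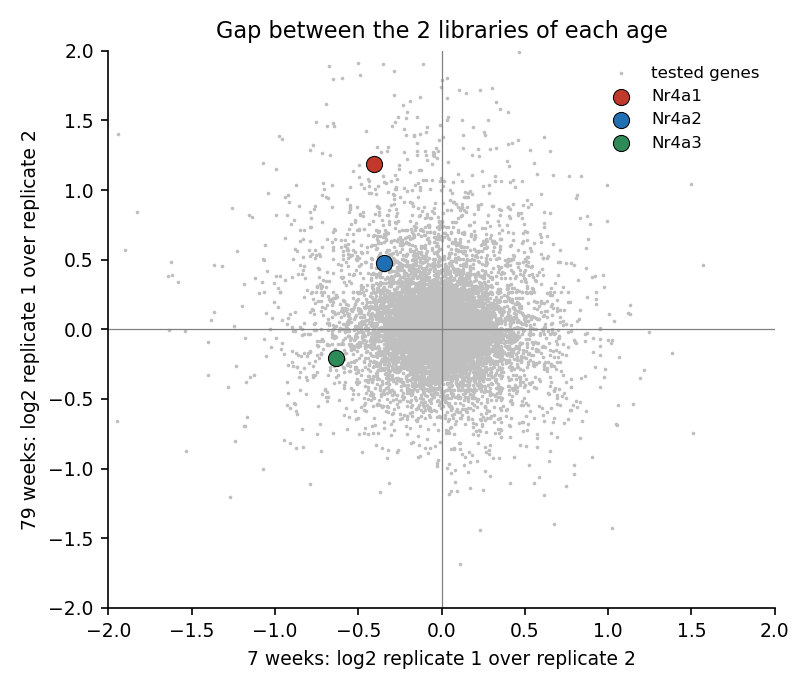
Gap between the 2 libraries of each age for 15230 tested genes (62 lie outside the axes), as the log2 ratio of replicate 1 over replicate 2 at 7 weeks (horizontal) and at 79 weeks (vertical). Nr4a1 lies near the upper edge of the cloud at 79 weeks with a gap of 1.19, Nr4a2 at 0.48, and Nr4a3 below 0.

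The balance between the receptors therefore shifted from library to library. Gene length cancels in a comparison of such a balance between libraries. The log2 ratio of Nr4a1 to Nr4a3 reads was 0.59 and 0.35 in the 7-week libraries, 1.51 in 79-week replicate 1 and 0.11 in 79-week replicate 2. That of Nr4a2 to Nr4a3 was 0.22 and -0.07 at 7 weeks and 1.12 and 0.44 at 79 weeks, higher in both 79-week libraries. The log2 ratio of Nr4a1 to Nr4a2 was 0.37 and 0.42 at 7 weeks, 0.39 in 79-week replicate 1 and -0.33 in 79-week replicate 2, so only that last library held fewer Nr4a1 than Nr4a2 reads.

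The 79-week replicate 1 library stood apart in other ways. Summed over 13 choroid plexus markers, it held 5442 CPM, against 17.6 to 41.5 CPM in the other libraries, and all 7 tested markers were higher in it than in 79-week replicate 2. Folr1, 1 of the 13, was at 0 in both 7-week libraries. The 10 meninges and fibroblast markers summed to 373 CPM there and to 171 to 204 CPM elsewhere, and the 8 ependymal markers to 60.03 CPM against 22.4 to 30.1 CPM. For cell types known to express Nr4a1 outside neurons, 10 endothelial markers summed to 309 and 347 CPM at 7 weeks and 330 and 355 CPM at 79 weeks. The 10 border macrophage and monocyte markers summed to 5.10 to 8.59 CPM in the 4 libraries. All 3 tested ones were lower in both 79-week libraries than in either 7-week library, beside 28.7% of all genes, and 0 were called. The 10 microglia markers summed to 117 and 125 CPM at 7 weeks and to 179.7 and 218 CPM at 79 weeks. Of these, 5 rose, beside 4.17% of all genes called higher. Granule neuron and Purkinje cell markers, which define cerebellum, were abundant in every library (6693 to 8527 and 9616 to 11530 CPM summed over 10 markers each). Even so, 6 granule neuron and 5 Purkinje cell markers were called lower and 0 higher, beside 4.68% of all genes called lower. The 8 oligodendrocyte markers were lowest in 79-week replicate 1, at 3664 CPM in sum against 5160 CPM in 79-week replicate 2 and 6081 and 5696 CPM at 7 weeks, and all 8 were lower there than in 79-week replicate 2. The part of any of these cell type differences in the Nr4a levels was not tested. Without 79-week replicate 1 the log2 fold change of Nr4a1 was 0.94 in place of 1.65, that of Nr4a2 1.67 in place of 1.92 and that of Nr4a3 1.27 in place of 1.18.

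Rapid primary response genes, which like the Nr4a genes are induced without new protein synthesis, were compared as a list of 43. Of 40 tested, 5 rose (12.5%, beside 8.84% of all genes called in either direction and 4.17% called higher), 0 fell and 35 were not called, with a median log2 fold change of 0.33 against 0.01 over all tested genes. The kinase gene Sik1 rose 2.61-fold, from 8.79 and 8.35 CPM to 26.2 and 18.5 CPM (edgeR adjusted p = 0.00793). Fos and Fosb, subunits of AP-1, rose 6.16-fold and 9.25-fold, with adjusted p = 0.016 and 0.0103 in edgeR. Klf6, a zinc finger factor, rose 1.45-fold (adjusted p = 0.0203). The fifth was the stress-induced factor Atf3, named after its value was seen, which went from 0.12 and 0.53 CPM to 2.02 and 1.69 CPM (edgeR adjusted p = 0.0371). With all libraries, Fos was not called with robust dispersion estimates (edgeR adjusted p = 0.238), and DESeq2 gave Atf3 no adjusted p. All 5 kept the call when either 79-week library was left out and lost it when either 7-week library was. The number of list members called also moved with the library left out, as did the number over all genes, so no change of the list is read from these fits.

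Other well known members of that list were not called in the edgeR fit, and for some of them this depended on the fit. Egr1, a zinc finger factor, stood at 47.4 and 45.8 CPM at 7 weeks and at 113 and 56.3 CPM at 79 weeks. Junb stood at 9.84 and 10.5 CPM and then at 35.8 and 12.7 CPM. For both, 79-week replicate 1 was far above the other 3 libraries. The neuronal factor Npas4 stood at 3.68 and 4.97 CPM and then at 11.9 and 6.18 CPM. Arc, which encodes a protein of synaptic endosomes, stood at 26.1 and 24.3 CPM and then at 21.1 and 19.6 CPM, and was lower in both 79-week libraries (edgeR adjusted p = 0.0859). Npas4 was called by DESeq2 (adjusted p = 0.034), Egr1 in edgeR with the replicate number as a block (adjusted p = 0.0366), and Egr1, Junb and Npas4 in edgeR without the low-count filter and in that without 79-week replicate 2. Of the 40 genes, 35 were higher in 79-week replicate 1 than in replicate 2, against 49.9% of all tested genes, so Nr4a1 and Nr4a2 had the order of most of the list. Nr4a3 had the order of the other 5, Klf6, Maff, Gadd45g, Trib1 and Amigo3, named after their values were seen. Of the 33 list genes with a promoter window, 22 (66.7%) held a CRE core in at least 1 window. That share was 23.0% over all genes with a window. Counted per window, it was 32.2% among windows with at least 64.7% G and C. In this list 0 genes held 4 cores, beside 69 of all 27025 genes with a window holding 4 or more. With 33 genes, 0 cannot be set apart from that share.

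**Figure D3:**
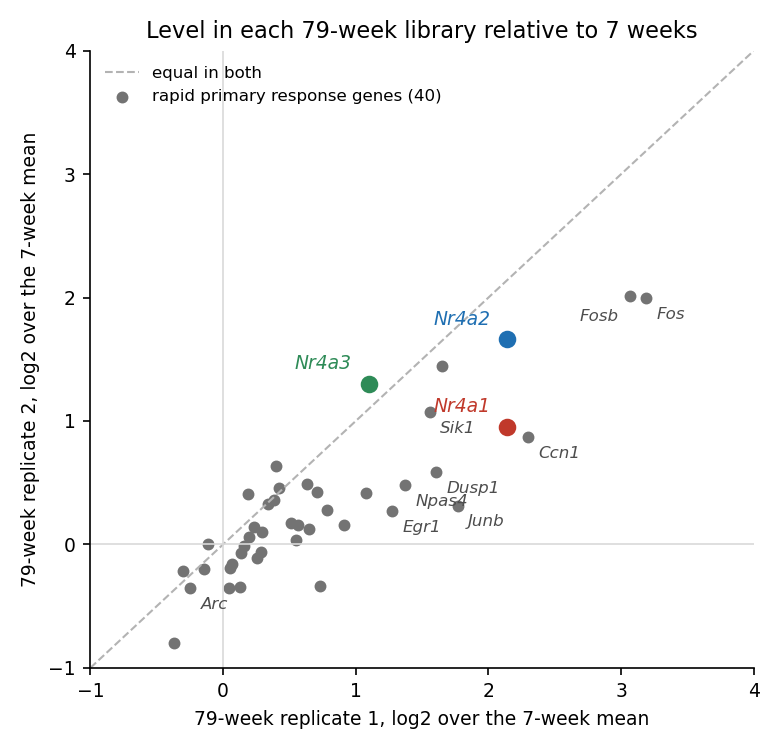
Level in 79-week replicate 1 (horizontal) and 79-week replicate 2 (vertical), each as log2 over the mean of the 2 7-week libraries, for 40 rapid primary response genes (grey) and the 3 receptors (coloured). Most grey points lie below the dashed line of equality, as do Nr4a1 (2.14 and 0.95) and Nr4a2 (2.14 and 1.66), while Nr4a3 (1.10 and 1.30) lies above it.

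Genes that follow activity later gave another picture. Of 30 tested members of the delayed list, 0 rose, 6 fell and 24 were not called (20.0% called, beside 8.84%), with a median of -0.09. Nrn1, which encodes neuritin, a growth-promoting membrane protein, fell by 0.75 on the log2 scale, from 127 and 123 CPM to 73.0 and 76.1 CPM (edgeR adjusted p = 0.00291). The potassium channel gene Kcna1 fell by 0.57, the postsynaptic scaffold gene Homer1 fell by 0.68 and the cell cycle inhibitor gene Cdkn1a fell by 0.56. Homer1 has a short activity-induced form, which counts per gene do not separate from the long ones. With each library left out in turn, the log2 fold change ranged from -0.79 to -0.72 for Nrn1 and from -0.62 to -0.53 for Kcna1. It ranged from -0.80 to -0.57 for Homer1 and from -0.64 to -0.50 for Cdkn1a. Calls in those fits are not read, since the number called over all genes also moved between them.

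Among kinases and factors upstream of the Nr4a genes, 40 were tested, and 0 rose, 6 fell and 34 were not called (beside 8.84% of all genes called), with a median of -0.07. Camk4, the nuclear calmodulin kinase that phosphorylates CREB and is abundant in granule neurons, fell from 1351 and 1314 CPM to 822 and 775 CPM (log2 fold change -0.74, edgeR adjusted p = 0.00318). Camkk2, a kinase that activates it, fell by 0.73 on the log2 scale. Ppp3ca, a catalytic subunit of calcineurin, fell by 0.31. Granule neuron markers moved in the same direction, with 6 of 10 lower (beside 4.68% of all genes), 0 higher (beside 4.17%) and a median of -0.31. Their part in these falls was not tested. The direction was not the same throughout the list. Both 79-week libraries were below both 7-week libraries for 19 members (beside 28.7% of all genes) and above for 7 (beside 29.1%). In edgeR 18 of the 40 had an unadjusted p under 0.05, beside 4084 of all 15292 tested genes. Of these 18, 4 were higher and the rest lower. Library size scaling called 3 higher and 5 lower, beside 901 and 484 over all genes. Robust dispersion estimates called 1 higher and 10 lower, beside 813 and 933 over all genes. Without 7-week replicate 1 the log2 fold change of Camk4 was -0.72, that of Camkk2 -0.71 and that of Ppp3ca -0.28. Without 7-week replicate 2 they were -0.76, -0.75 and -0.35. Calls in those fits are not read, since the number called over all genes fell too.

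The partners of the NR4A proteins showed no call. Of 19 tested partners and coregulators, 0 rose and 0 fell in edgeR (beside 8.84% of all genes called), with a median of -0.05. A list of 19 is too small to set 0 calls apart from that share. In edgeR 5 had an unadjusted p under 0.05, beside 4084 of all 15292 tested genes. DESeq2 and limma-voom also called 0. Rxra, a retinoid X receptor that pairs with NR4A1 and NR4A2, stood at 18.9 and 20.8 CPM at 7 weeks and 22.01 and 24.8 CPM at 79 weeks (log2 fold change 0.23, SE 0.10, adjusted p = 0.204). Rxrb stood at 70.0 and 64.0 CPM and then at 67.2 and 62.5 CPM. Rxrg was below the low-count filter, at 0.39 to 0.87 CPM. The corepressor gene Ncor1, among the most abundant of the list, had a log2 fold change of -0.10. The list had 3 called members without the low-count filter, where 3051 genes were called in all. It had 1 each with library size scaling (1385 in all) and with the replicate block (1396 in all).

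The rest of the nuclear receptor superfamily was compared as a list. Of 45 other nuclear receptor genes, 32 were tested, and 4 rose, 0 fell and 28 were not called (12.5%, beside 8.84%), with a median of -0.02. Nr3c2, the mineralocorticoid receptor gene, rose from 20.1 and 24.2 CPM to 46.7 and 50.1 CPM (2.18-fold, edgeR adjusted p = 0.00343). Rarg, a retinoic acid receptor gene, rose 1.95-fold, from 12.5 and 14.4 CPM to 26.6 and 25.8 CPM. Nr1h3, the liver X receptor alpha gene, rose 1.64-fold. The fitted change of Nr3c2 (1.12, SE 0.10, on the log2 scale) lay within the SE of that of Nr4a3 (1.18, SE 0.18), and was above that of Nr4a3 when 7-week replicate 1 or 79-week replicate 2 was left out and above that of Nr4a1 when 79-week replicate 1 was. Without 7-week replicate 1 the log2 fold change of Nr3c2 was 0.998, that of Rarg 0.86 and that of Nr1h3 0.83. Without 7-week replicate 2 they were 1.26, 1.07 and 0.59. Calls in those fits are not read, since the number called over all genes fell too. Nr3c2 and Rarg differed between 79-week libraries by less than any of the Nr4a genes.

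**Figure D4:**
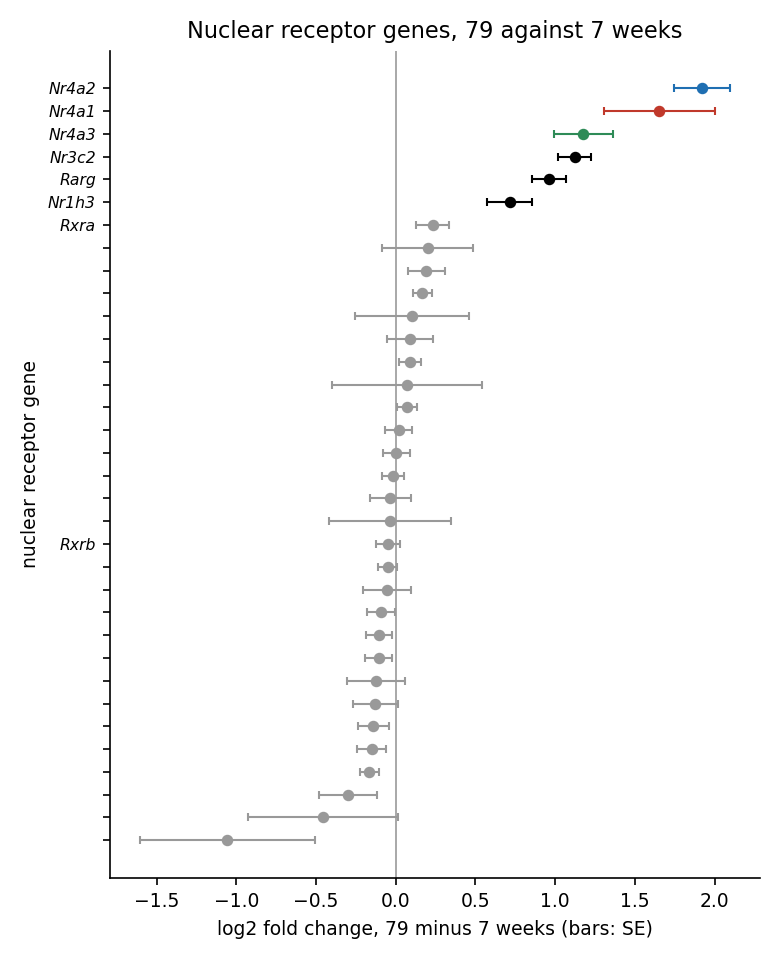
Fitted log2 fold change, 79 minus 7 weeks (points, with bars of 1 SE), for the 3 Nr4a genes (coloured) and 31 of the 32 other tested nuclear receptor genes, black where called and grey where not, with names for the genes described in the text. Nr4a2 is at 1.92, Nr4a1 at 1.65 and Nr4a3 at 1.18, with Nr3c2 at 1.12 within the bar of Nr4a3; the order of Nr3c2 against Nr4a1 or Nr4a3 changes in 3 of the 4 fits that leave out a library.

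Genes reported elsewhere as NR4A targets, 23 in all, moved both ways. Of 14 tested, 2 rose, 2 fell and 10 were not called (28.6%, beside 8.84%), with a median of 0.00. Th, the tyrosine hydroxylase gene that NR4A2 activates in dopamine neurons, stood at 1.68 and 7.91 CPM at 7 weeks and at 22.8 and 36.3 CPM at 79 weeks. It rose 5.91-fold (edgeR adjusted p = 0.0226), though it was not called by DESeq2 or with robust dispersion estimates, and its log2 fold change was 4.13 when 7-week replicate 2 was left out and 1.90, not called, when 7-week replicate 1 was. Unlike Nr4a2, Th was higher in 79-week replicate 2 than in replicate 1. Of the other markers of brainstem and midbrain neurons, the dopamine transporter gene Slc6a3 stood at 0 to 0.10 CPM, the noradrenaline transporter gene Slc6a2 was at 0 in all 4 libraries, and Slc17a6, a glutamate transporter gene, was highest in 7-week replicate 2 (6.80 CPM against 0.31 to 1.45 CPM). The 10 markers summed to 43.4, 57.6, 66.0 and 77.6 CPM in 7-week replicates 1 and 2 and 79-week replicates 1 and 2. These sums include Th and its own rise, and without Th neither 79-week sum was above that of 7-week replicate 2. Of the 3 tested markers Th alone was called, and their median log2 fold change was -0.06. The part of tissue outside the cerebellum in the Th level was not tested. The mitochondrial carrier gene Ucp3 rose 2.64-fold, from 1.06 and 1.45 CPM to 3.06 and 3.63 CPM, and was not called by DESeq2 (adjusted p = 0.053) or without either 7-week library. DESeq2 called 0 members of the list higher and 1 lower, beside 548 and 742 over all genes. The cell cycle factor gene E2f1 fell by 1.83 on the log2 scale, from 4.80 and 4.44 CPM to 1.66 and 0.95 CPM. The growth factor receptor gene Ret fell by 0.32 (edgeR adjusted p = 0.0493), a call lost in 5 of 9 alternatives with all libraries. None of the 4 passed without 7-week replicate 1, and 1 passed without 7-week replicate 2.

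Some of these genes overlap a neighbour in RefSeq, and the strand setting of the counting is not given in the sources used here. E2f1 overlaps Necab3, Camkk2 overlaps P2rx4, Nr1h3 overlaps Acp2, Ncor1 overlaps Ttc19 and Nr3c2 overlaps Gm10649, so their reads may not be wholly their own. The 3 Nr4a genes overlap no other gene in the count files.

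The genes whose profile over the 4 libraries was most like that of each receptor were found by the distance between centred log2 levels, among 13674 named genes whose mean level reached 1 CPM. For Nr4a1 they were Ccn1, Gpx3, Gm973, Oas1b and Dnah1, at distances of 0.17 to 0.30 log2 units. Ccn1, an early response gene for a secreted matrix protein, stood at 1.31 and 1.98 CPM at 7 weeks and at 9.89 and 3.37 CPM at 79 weeks. For Nr4a2 they were Lmx1a, Comp, Ifi27, Apold1 and Irf7, at 0.19 to 0.30, with Apold1, an early response gene of blood vessels, at 2.18 and 2.56 CPM and then at 9.58 and 8.60 CPM. For Nr4a3 they were Minar1, Cd52, St8sia6, Casp12 and Card9, at 0.05 to 0.21, with Minar1 at 2.62 and 4.20 CPM and then at 7.56 and 9.20 CPM. Neither of the other receptors was among any receptor's nearest 5. Seen from Nr4a1, Nr4a2 ranked 42 at a distance of 0.62 and Nr4a3 ranked 303 at 1.06, and seen from Nr4a2, Nr4a3 ranked 92 at 0.87. With 4 libraries such distances describe these samples and no more.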

How the data were processed

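The authors deposited an unnormalized read count for each Ensembl gene. They trimmed reads with cutadapt, aligned them with STAR to mm9 and counted them with HTSeq, per the submitters' processing notes, with versions, annotation release and strand setting not given in the sources used here. HTSeq summary lines, 35.5% to 40.7% of each file's total, were taken off. Reads assigned to genes numbered 16367656 and 21124608 in the 7-week libraries and 18901921 and 22826993 in the 79-week libraries, and 3 counts, the limit that a count of 0 allows, came to 0.131 to 0.183 CPM. Intervals and limits cover counting error only.

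Genes were kept by filterByExpr (minimum count 10, total 15), scaled by TMM and tested by the quasi-likelihood F test of edgeR 4.0.16 in R 4.3.3, as 79 minus 7 weeks with no covariates. Adjusted p-values (Benjamini-Hochberg) run over all 15292 tested genes with a threshold of 0.05. The edgeR, DESeq2 and limma-voom fits were run on simulated counts in which every gene had the same biological coefficient of variation, 9.43%. The simulation held no tissue difference between libraries of an age, so it does not vouch for the calls in these data. Profiles use log2(CPM + 0.5). Symbols were matched for 32919 identifiers, and of 324 list entries 2 were not found. Promoter windows are from RefSeq.

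The members and gene lists were chosen with earlier results of these data known. Genes named are the 3 receptors, Rxra, Rxrb, Rxrg, Fos, Fosb, Egr1, Arc, Npas4 and Junb, from every list the called members of smallest adjusted p, 4 at most (the 2 most abundant where none was called) and the 5 nearest profiles of each receptor. For 3 list genes under this rule the values are not reported here.

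Scaling was varied (RLE, upper quartile, library size alone), as were the filter (none, or 1 CPM in at least 2 libraries) and the test (DESeq2 1.42.0, limma-voom in limma 3.58.1, robust dispersion). Other fits blocked on the replicate number or dropped a single library, which leaves an age with 1 library assumed to vary like the others. A crossed block was added after seeing the data. Replicates differed by more than sampling noise (chi-square per degree of freedom 6.07 and 17.2).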

Additional observations from a re-analysis of the deposited data

How the results depend on the processing

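The log2 fold changes of Nr4a1, Nr4a2 and Nr4a3 were positive under all 13 alternatives of scaling, filter, test, block and left-out library. With one library left out at a time they ranged from 0.94 to 2.13, 1.67 to 2.14 and 0.90 to 1.55, and other settings moved them by less than their spread between replicates. Over all genes, 1352 were called, 0 to 2425 with a library left out (0 in edgeR without 7-week replicate 1, where 2610 had an unadjusted p under 0.05) and 3051 without the low-count filter. Library size scaling changed the split from 637 higher and 715 lower to 901 and 484. With a library left out, counts ranged from 0 to 19 for rapid response genes, 0 to 10 for delayed genes, 0 to 9 for upstream genes, 0 to 3 for partners, 0 to 6 for other nuclear receptors and 0 to 5 for targets. Without the filter they were 16, 11, 13 and 3 for the rapid, delayed, upstream and partner lists. Library size scaling called 1 partner, DESeq2 called 1 target and robust dispersion called 11 upstream genes. Over all genes these settings called 1385, 1290 and 1746. The causes of these shifts were not tested.

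The replicate number as a block gave log2 fold changes of 1.54, 1.91 and 1.204 for Nr4a1, Nr4a2 and Nr4a3, 1396 calls over all genes, 10 rapid response genes and 1 partner. Library differences correlated at -0.106 between the ages across genes, and a crossed replicate block, chosen after seeing the data, called 2014 genes, with 15 rapid, 10 upstream and 2 partner genes.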
